A study of Arabidopsis thaliana with 5 samples.

Results

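The genes described here are 44 nuclear genes of the photosynthetic light-harvesting antenna and the photosystems of Arabidopsis thaliana, out of 26649 genes and unnamed transcripts that could be tested. They were chosen by locus, as members of known protein classes, with no value of theirs in the rule, but with earlier results of these data known. The set holds 6 antenna genes of photosystem I (LHCA1 to LHCA6), 14 antenna genes of photosystem II (the LHCB genes), 12 nuclear subunit genes of photosystem I (PSA), 10 nuclear subunit genes of photosystem II (PSB), and the stress-type antenna relatives ELIP1 and ELIP2. RNA of Atino80-5 mutant seedlings was measured on 3 Agilent 1-colour expression arrays and RNA of wild type seedlings on 2. All seedlings were 12 days old and whole, and stood on MS medium at 22 °C in days of 16 h light and 8 h dark at about 100 microeinsteins per square metre and second, with no treatment given. The labels name the mutant only as Atino80-5, without the kind of lesion. They do not tell if RNA on different arrays of a genotype came from different batches of seedlings, so the p-values cover only array-to-array spread, which may be technical.

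Light-harvesting proteins bind chlorophyll in the thylakoid membrane of the chloroplast and pass the absorbed energy to the reaction centres. LHCA proteins form a belt beside photosystem I, while LHCB1, LHCB2 and LHCB3 make up the trimers of photosystem II and LHCB4, LHCB5 and LHCB6 the single proteins that link those trimers to its core. The reaction centre proteins themselves are coded in the chloroplast, and the nuclear PSA and PSB genes code for subunits around them that dock electron carriers, hold the oxygen-evolving cluster or bind antenna. ELIPs, the early light-induced proteins, belong to the same protein family and accumulate in plants under strong light, ultraviolet light or cold, where they are thought to protect against light damage.

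The 75th percentile of the processed signal lay between 4461 and 4794 in the 3 Atino80-5 arrays and was 4476 and 4475 in the wild type arrays, and log2 signals correlated across probes at 0.9951 to 0.9964 within a genotype, against 0.9799 to 0.9817 between genotypes. INO80, the gene for the chromatin remodelling ATPase after which the mutant is named, has probes that went opposite ways: A_84_P20358 gave signals of 62.2, 55.0 and 62.9 in Atino80-5 and 9438 and 9289 in wild type, whereas A_84_P835513 gave 504, 484 and 490 in Atino80-5 and 132 and 124 in wild type. Wild type arrays 1 and 2 and Atino80-5 arrays 1 and 2 lay on 1 slide and Atino80-5 array 3 on another. The differences between genotypes were wide: 57.2% of all genes passed an adjusted p of 0.05 (limma, Benjamini-Hochberg over all genes), with 30.5% higher and 26.7% lower in Atino80-5, and 7.19% passed it with at least a 2-fold difference. The median log2 change of all genes was 0.0046.

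Most of the antenna and photosystem genes had slightly lower signals in Atino80-5 than in wild type, while both ELIP genes and the antenna gene LHCB4.3 were more than 2-fold higher. All 44 genes were measured, each well above background on all 5 arrays. Of these, 20 were lower, 4 were higher and 20 were not called. Under the settings of the report the share of lower calls was 45.5%, beside 26.7% of all genes. The share of calls in either direction was 54.5%, beside 57.2%. The median log2 change over the 44 genes was -0.15, and 40 of them had a change below 0. The falls were small, none of them reaching 2-fold. The 3 genes with at least a 2-fold difference all rose, beside 7.19% of all genes that passed the test with such a difference in either direction. The scaled values of the 3 Atino80-5 arrays and the 2 wild type arrays did not overlap for 36 of the 44 genes, beside 74.7% of all genes. The number of lower calls depended on the arrays and the scaling. It was 13 without wild type array 1, 9 without wild type array 2, 17 without Atino80-5 array 1, 13 without Atino80-5 array 2 and 12 without Atino80-5 array 3, and it was 12 within the slide that holds both genotypes and with the slide as a block. With quantile normalization between arrays it was 8. Leaving out any 1 of the 5 arrays kept the call of 8 lower genes, LHCA2, PSAD2, PSAE2, PSAF, PSAH1, PSAK, PSAO and PSBO1, and of the 3 genes with at least a 2-fold rise, while the other 12 lower genes lost it without at least 1 array.

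The seedlings were whole, so the RNA mixes tissues, and in these arrays root markers moved with the genotype. Of 19 root marker genes 16 were higher, 2 lower and 1 not called in Atino80-5. That was 84.2% higher and 10.5% lower, beside 30.5% and 26.7% of all genes. The median log2 change of the root markers was 0.84, and 0.54 with another background correction (normexp). Their summed scaled signal, in multiples of each array's 75th percentile, was 4.17 in all 3 Atino80-5 arrays, and 3.32 and 3.43 in the wild type arrays. This sum rests mostly on a few bright markers, so it does not stand for all 19. The brightest of them gave processed signals of 7072, 7178 and 7266 in Atino80-5, and 7559 and 7523 in wild type, and was called lower. Every root marker was well above background on all arrays, apart from PLT1, a root meristem regulator named after its value was seen, which was so on 4. The part of tissue proportions in the lower antenna and photosystem signals was not tested. Fewer green cells and less of these RNAs per cell cannot be told apart in whole seedlings.

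**Figure D1:**
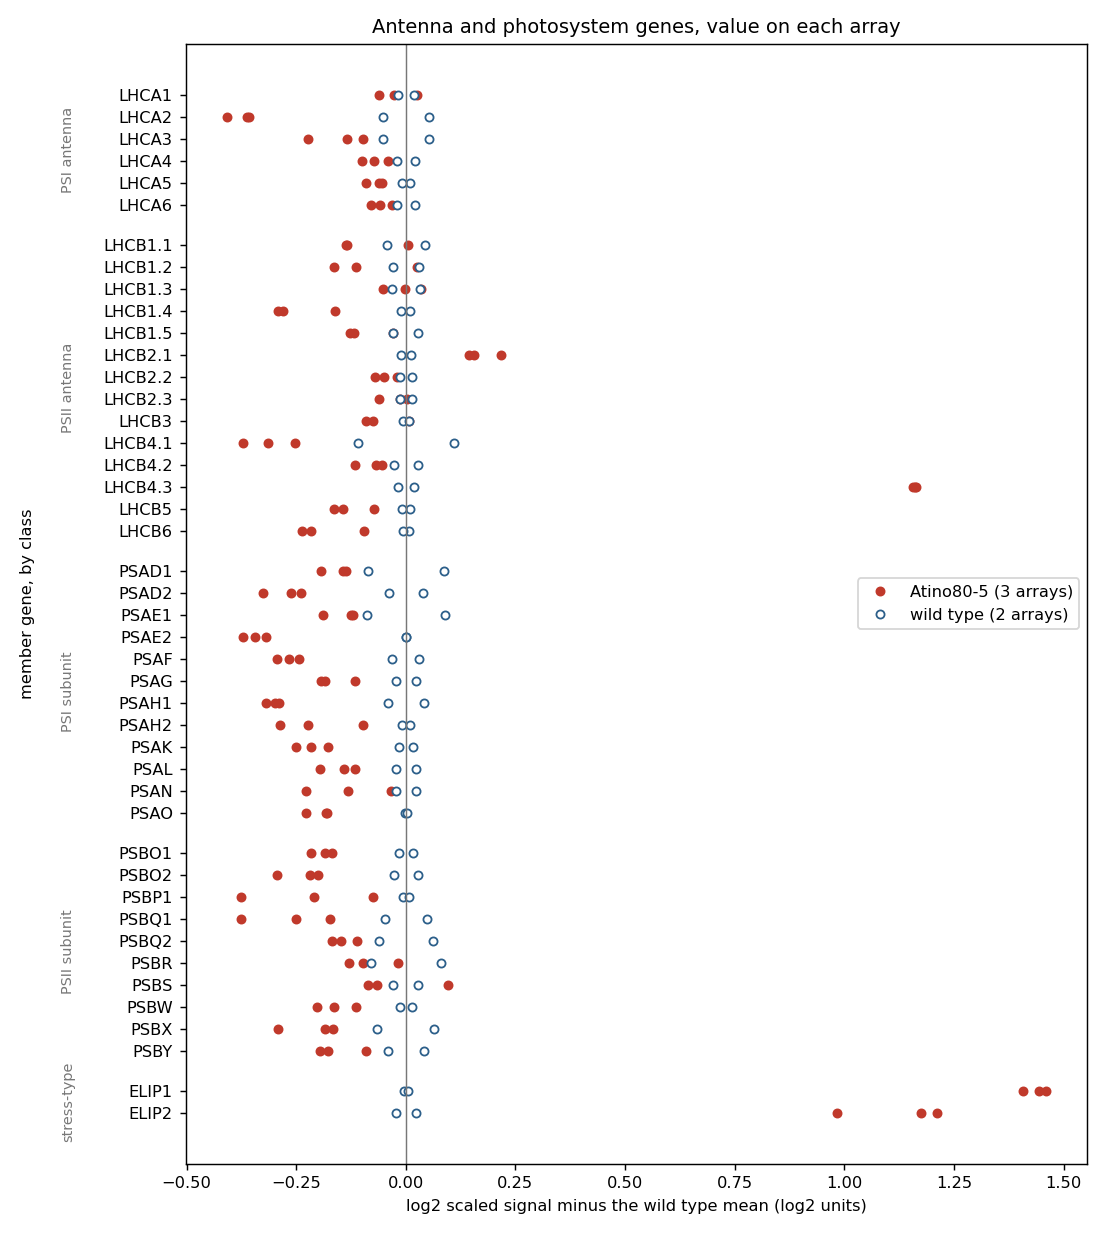
Value of each of the 44 genes on each array, as log2 scaled signal minus the mean of the wild type arrays, with Atino80-5 as filled points and wild type as open points. ELIP1, ELIP2 and LHCB4.3 lie more than 0.9 log2 units to the right of wild type on every Atino80-5 array, and the subunit genes of both photosystems lie mostly to the left by less than 0.4.

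ELIP1 and ELIP2 had the clearest differences of the set along with LHCB4.3. ELIP1 (AT3G22840) gave processed signals of 19265, 19445 and 20933 in Atino80-5, and of 7076 and 7123 in wild type. Every Atino80-5 array was far above both wild type arrays, which differed little from each other. On the scaled log2 scale ELIP1 averaged 2.103 ± 0.027 in Atino80-5 (SD, n = 3) and 0.67 ± 0.0069 in wild type (SD, n = 2), a rise of 1.44 ± 0.029 (SE), or 2.71-fold (limma adjusted p = 2.81e-05). ELIP2 (AT4G14690) gave 9561, 11314 and 12022 in Atino80-5, and 4924 and 4776 in wild type. Its lowest Atino80-5 array, array 1, was still almost double the wild type arrays. ELIP2 rose by 1.12 ± 0.079, or 2.18-fold (adjusted p = 0.000472). Over 18 alternative settings the change of ELIP1 lay between 1.38 and 1.46 and that of ELIP2 between 1.07 and 1.19, and both stayed past the threshold in every one. The difference between the changes of the 2 genes was 0.31. Each of them has only 1 probe, so the alternatives with the mean or the dimmest of a gene's probes could not move its change.

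LHCB4.3 (AT2G40100) codes for a form of the antenna protein CP29 that is known to be made in strong light, and it moved apart from its relatives LHCB4.1 and LHCB4.2. Its processed signals were 33088, 34186 and 35611 in Atino80-5, and 14658 and 15032 in wild type. After scaling, the 3 Atino80-5 arrays were nearly identical, at 2.89 ± 0.0031 (SD, n = 3), against 1.73 ± 0.026 in wild type (SD, n = 2). The rise was 1.16 ± 0.026, or 2.24-fold (adjusted p = 3.48e-05), and it ranged from 1.104 to 1.22 over the 18 alternatives. LHCB4.3 also has only 1 probe, so the alternatives on the probes of a gene could not move its change. LHCB4.1 (AT5G01530) gave 320574, 345828 and 374075 in Atino80-5, and 449097 and 385936 in wild type. The wild type arrays of LHCB4.1 lay further apart than those of any other member, and both were above every Atino80-5 array. LHCB4.1 fell by 0.31 ± 0.079 (adjusted p = 0.0258), a call that was lost with quantile normalization and without Atino80-5 array 1 or 2 or wild type array 1, with a log2 change of -0.20 without the last of these. LHCB4.2 (AT3G08940) had a log2 change of -0.079 ± 0.035 and was not called (adjusted p = 0.117). The log2 change of LHCB4.3 exceeded that of LHCB4.1 by 1.47 and that of LHCB4.2 by 1.24.

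Among the 6 antenna genes of photosystem I, 1 was lower and 5 were not called, and their median log2 change was -0.070, which turned to 0.00046 with quantile normalization. With median scaling 5 of the 6 were called lower, and with the mean of a gene's probes 4, beside 9058 and 7160 of all 26649 genes. LHCA2 (AT3G61470) was the gene that fell. Its processed signals were 231801, 248665 and 257132 in Atino80-5, and 297756 and 320114 in wild type, so that all Atino80-5 arrays lay below both wild type arrays. The log2 change was -0.38 ± 0.043, or 23.0% below wild type (adjusted p = 0.00211), the lowest of the 44 genes. LHCA3, whose protein pairs with that of LHCA2 in the antenna belt, gave 415272, 419621 and 409087 in Atino80-5, and 430081 and 462554 in wild type. Its scaled values did not overlap between genotypes, but the change of -0.15 ± 0.056 was not called (adjusted p = 0.0740). LHCA1 and LHCA4, which form the other pair of the belt, had log2 changes of -0.021 ± 0.037 and -0.072 ± 0.032 and were not called. With quantile normalization LHCA1 was called higher, at 0.11 (adjusted p = 0.0165), and LHCA4 and LHCA6 also lay above 0, at 0.0099 and 0.033, without a call. LHCA5 and LHCA6, scarce antenna proteins that join photosystem I to the NADH dehydrogenase-like complex, had log2 changes of -0.069 and -0.057 and were not called.

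The 9 genes for trimer proteins of photosystem II differed in direction and mostly missed the threshold. LHCB1.4 (AT2G34430) gave 342225, 326732 and 336287 in Atino80-5, and 387001 and 381495 in wild type. All Atino80-5 arrays were lower, and LHCB1.4 fell by 0.24 ± 0.0497, or 15.6% (adjusted p = 0.0132). The call was lost without either wild type array (adjusted p up to 0.0742). LHCB1.5, which lies next to LHCB1.4 on chromosome 2, gave 497941, 485094 and 500414 in Atino80-5, and 500034 and 520216 in wild type. Its log2 change of -0.092 ± 0.044 was not called. LHCB1.1, LHCB1.2 and LHCB1.3, which lie side by side on chromosome 1, had log2 changes of -0.089, -0.084 and -0.0068, with overlapping values between genotypes and no call. LHCB2.1 (AT2G05100) gave 8186, 8068 and 8436 in Atino80-5, and 7125 and 7010 in wild type. It was the one gene of the trimers called higher, by 0.17 ± 0.034 (adjusted p = 0.0120). That call was lost without wild type array 1 or 2, where the change was 0.18 or 0.16, and with the mean of its probes, and its other probe had a log2 change of -0.15. LHCB2.2, LHCB2.3 and LHCB3 had changes of -0.047, -0.023 and -0.053 and were not called. The LHCB1 genes are near-identical copies of each other, as are the LHCB2 genes, and probe sequences were not used here, so values of single copies are uncertain to the extent that they share signal.

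The single antenna proteins CP26 and CP24 are coded by LHCB5 and LHCB6, and both genes fell. LHCB6 (AT1G15820) gave 571290, 544409 and 556196 in Atino80-5, and 615328 and 608897 in wild type. Each Atino80-5 array was below both wild type arrays, and the fall was 0.18 ± 0.052, or 11.9% (adjusted p = 0.0376). LHCB5 (AT4G10340) gave 410885, 399496 and 420328 in Atino80-5, and 435982 and 430781 in wild type, a fall of 0.13 ± 0.038 (adjusted p = 0.0427). Both calls were lost with quantile normalization, where LHCB6 was at -0.10 and LHCB5 at -0.033. They were also lost when any array but Atino80-5 array 1 was left out, with adjusted p up to 0.149 for LHCB6 and 0.172 for LHCB5. Over all 14 antenna genes of photosystem II, 4 were lower, 2 higher and 8 not called, and the median log2 change of -0.082 turned to 0.016 with quantile normalization. Without wild type array 1 the count of lower calls among these 14 was 0, without wild type array 2 or Atino80-5 array 2 it was 1, and without Atino80-5 array 3 it was 2. The antenna genes of both photosystems held 5 lower calls in 20 genes, or 25.0%, beside 26.7% of all genes. That count was 12 with median scaling, 10 with the mean of a gene's probes and 2 with quantile normalization. Over all 26649 genes these settings gave 9058, 7160 and 7528 lower calls. The antenna share was thus above that of all genes with median scaling and with the mean of probes, and below it with quantile normalization.

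The subunit genes of photosystem I were lower more often. Of the 12, 9 fell and 3 were not called, beside 26.7% of all genes that fell, and the median log2 change was -0.20. The median over the 12 genes, set against the wild type mean, was -0.18, -0.21 and -0.22 on the Atino80-5 arrays, and -0.0058 and 0.0058 on the wild type arrays. Their summed scaled signal was 684, 681 and 668 in Atino80-5, and 770 and 785 in wild type. With quantile normalization the median was -0.099 and 5 of the 12 genes were called lower, beside 7528 of all 26649 genes in that setting. Between 6 and 8 were called lower when any 1 array was left out.

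The subunits that face the stroma and receive ferredoxin, PsaD and PsaE, each have a gene pair. PSAE2 (AT2G20260) gave 70004, 73732 and 73785 in Atino80-5, and 89123 and 89109 in wild type. The wild type arrays coincided, all Atino80-5 arrays were lower, and the log2 change was -0.34 ± 0.028, or 21.3% below wild type (adjusted p = 0.00076). PSAE1 (AT4G28750) gave 322591, 335005 and 331704 in Atino80-5, and 331883 and 375128 in wild type. Its change of -0.14 ± 0.063 was not called (adjusted p = 0.113). PSAD2 (AT1G03130) gave 168344, 182181 and 192111 in Atino80-5, and 217389 and 205994 in wild type. PSAD2 fell by 0.28 ± 0.043 (adjusted p = 0.00573), with every Atino80-5 array below both wild type arrays, whereas PSAD1 had a change of -0.16 ± 0.061 and was not called (adjusted p = 0.0830).

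PsaF docks plastocyanin on the lumen side. PSAF (AT1G31330) gave 455806, 464477 and 472503 in Atino80-5, and 552792 and 529681 in wild type, and it fell by 0.27 ± 0.034, or 17.0% (adjusted p = 0.00292). PSAN, for another subunit of the lumen side, had a change of -0.13 ± 0.065 and was not called. PsaH, PsaL and PsaO lie where the mobile antenna trimers of photosystem II attach during state transitions, the shift of antenna between photosystems. PSAH1 (AT3G16140) gave 56657, 59925 and 61748 in Atino80-5, and 72879 and 68913 in wild type. All Atino80-5 arrays were lower, and PSAH1 fell by 0.30 ± 0.035, or 18.9% (adjusted p = 0.00227). PSAO fell by 0.20 ± 0.029 (adjusted p = 0.00481), PSAH2 by 0.20 ± 0.063 (adjusted p = 0.0482) and PSAL by 0.15 ± 0.037 (adjusted p = 0.0242). PsaG and PsaK sit at the edges of the core where antenna is bound. PSAK fell by 0.21 ± 0.034 (adjusted p = 0.00575) and PSAG by 0.17 ± 0.038 (adjusted p = 0.0189). For all 6 of these genes the Atino80-5 and wild type values did not overlap, beside 74.7% of all genes without overlap. The calls of PSAO, PSAH2, PSAL and PSAG were lost with quantile normalization, and those of PSAH1 and PSAK were not. PSAG and PSAH2 also lost the call without Atino80-5 array 2 or 3 or either wild type array, and PSAL without Atino80-5 array 1 or 3 or either wild type array, with adjusted p up to 0.104, 0.173 and 0.126 for PSAG, PSAH2 and PSAL.

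**Figure D2:**
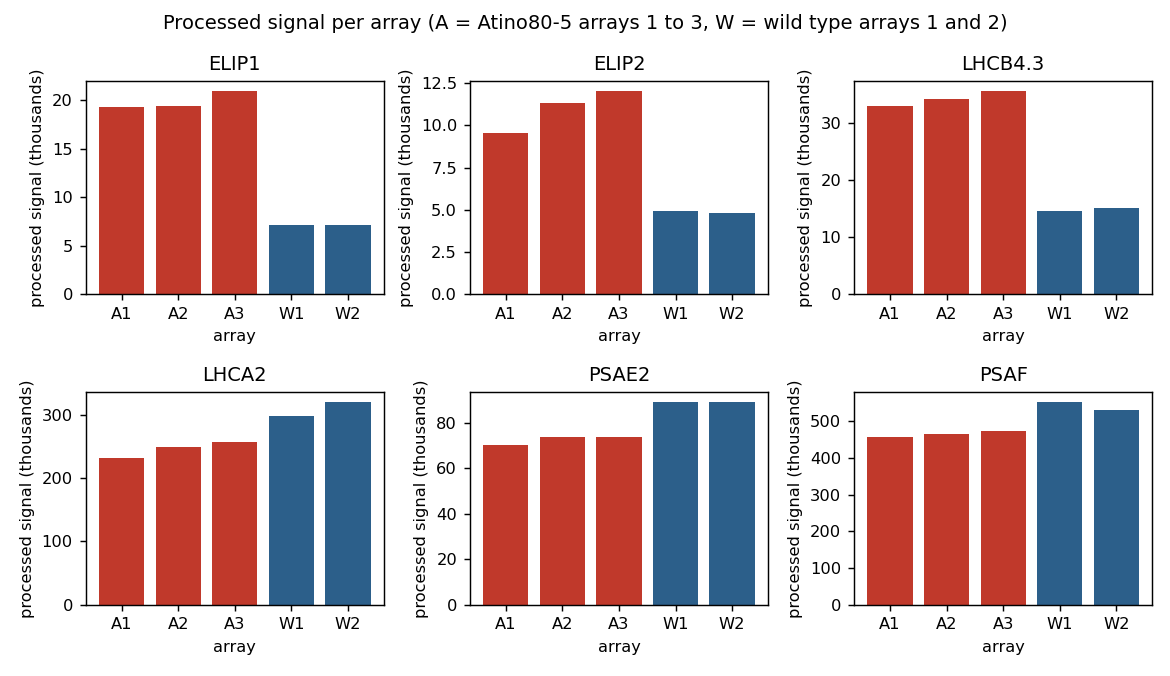
Processed signal, before scaling between arrays, on the 3 Atino80-5 arrays (A1 to A3) and the 2 wild type arrays (W1 and W2), 1 bar per array and each gene on its own axis from 0. ELIP1, ELIP2 and LHCB4.3 are higher on every Atino80-5 array, and LHCA2, PSAE2 and PSAF lower on every Atino80-5 array.

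The subunit genes of photosystem II held 6 lower calls and 4 genes not called, a share of 60.0% beside 26.7% of all genes, with a median log2 change of -0.18 that was -0.099 with quantile normalization. PsbO, PsbP and PsbQ shield the manganese cluster that splits water. PSBO1 (AT5G66570) gave 628667, 636566 and 683278 in Atino80-5, and 724436 and 709219 in wild type, so that every Atino80-5 array was lower. PSBO1 fell by 0.19 ± 0.030 (adjusted p = 0.00570). PSBO2 (AT3G50820) gave 181809, 178781 and 198061 in Atino80-5, and 208366 and 216486 in wild type, and it fell by 0.24 ± 0.042 (adjusted p = 0.00844, or 0.055 without wild type array 2). PSBQ1 (AT4G21280) gave 165525, 162503 and 154419 in Atino80-5, and 181177 and 193462 in wild type. PSBQ1 fell by 0.27 ± 0.073 (adjusted p = 0.0323), a call lost without Atino80-5 array 2 or either wild type array, while PSBQ2 had a change of -0.14 ± 0.048 that was not called (adjusted p = 0.0572). PSBP1 (AT1G06680) gave 418611, 534297 and 504912 in Atino80-5, and 542859 and 547910 in wild type. Atino80-5 array 1 was well below the other two, and the change of -0.22 ± 0.094 was not called (adjusted p = 0.108).

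The small membrane subunits of photosystem II also had lower signals. PSBX fell by 0.21 ± 0.062 (adjusted p = 0.0380), PSBW, whose protein stabilises the supercomplex of photosystem II with its antenna, by 0.16 ± 0.037 (adjusted p = 0.0198), and PSBY by 0.15 ± 0.048 (adjusted p = 0.0480). PSBR, for a protein that helps to assemble the oxygen-evolving subunits, had overlapping values and a change of -0.082 ± 0.064. PSBS (AT1G44575) codes for the sensor of lumen acidity that switches on the heat dissipation of excess light. It gave 275151, 319117 and 291474 in Atino80-5, and 294748 and 283309 in wild type. The genotypes overlapped, the change was -0.019 ± 0.068, and PSBS was not called (adjusted p = 0.833). Of the 6 lower calls among the 10 genes, 1, that of PSBO2, was kept with quantile normalization. It was the only lower call of the 10 in that setting, where 7528 of all 26649 genes were lower. The share of lower calls among the 10 was thus below that of all genes there. Between 1 and 5 of the 10 were called lower when any 1 array was left out, with 1 when wild type array 2 was left out. PSBX kept its call only without wild type array 1, PSBY only without Atino80-5 array 1, and PSBW without Atino80-5 array 1 or 2.

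Close relatives were also set against each other. For 12 pairs of relatives the log2 ratio of the 2 genes was compared between genotypes by a two-sided exact permutation test, whose smallest possible p is 0.10. The ratios of the genotypes did not overlap in 9 of the 12 pairs, while 74.7% of all genes, taken singly, had no overlap. The smallest p was reached by 6 of these 9 pairs: LHCB4.3 with LHCB4.1, LHCB4.3 with LHCB4.2, LHCB1.4 with LHCB1.5, LHCA2 with LHCA3, PSAE1 with PSAE2, and ELIP1 with ELIP2. Adjusted over the 12 pairs it was 0.20. The other 3 pairs without overlap, LHCB4.1 with LHCB4.2, LHCA1 with LHCA4 and PSBQ1 with PSBQ2, had an exact permutation p of 0.20 and differences of -0.23, 0.050 and -0.12. The change of LHCA2 minus that of LHCA3 was -0.22, that of LHCB1.4 minus LHCB1.5 was -0.15, and that of PSAE1 minus PSAE2 was 0.20. The pairs PSAD1 with PSAD2, PSAH1 with PSAH2 and PSBO1 with PSBO2 gave an exact permutation p of 0.40, with differences of 0.12, -0.099 and 0.048. This test cannot reach the threshold with 3 arrays against 2, so its p-values do not show that the genes of a pair changed alike.

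The probes of a gene mostly moved the same way, and the brightest probe, which stands for the gene, tended to show the smaller fall. The 44 genes had 128 probes, and 34 of the genes had several. Each of the other 10, among them ELIP1, ELIP2, LHCB4.3, PSAE2 and PSAF, had 1 probe, so agreement between probes could not be seen there. Tested as probes, 72 of the 128 were lower, 5 were higher and 51 were not called, a share of 56.2% lower beside 26.7% of all 35190 probes tested. Of the 34 genes with several probes, 30 had all of them below 0, and 0 had probes called in both directions. In 28 of the 34 the brightest probe fell less, or rose more, than the median of the gene's other probes. In 13 genes the brightest probe was not called while another probe was called lower. The probes of LHCB1.4 had log2 changes of -0.24, -0.39, -0.59 and -0.57 from the brightest to the dimmest. LHCA2 had -0.38, -0.46 and -0.59, all called lower. PSAD1, whose brightest probe at -0.16 was not called, had 4 other probes between -0.27 and -0.38, all called lower. Exceptions were LHCB4.1, where 4 probes lay between -0.31 and -0.42 and the dimmest was at 0.053, and PSBS, where the dimmer probe was called higher at 0.18 (adjusted p over probes = 0.0113) and the brighter was at -0.019. With the mean of a gene's probes in place of the brightest, 30 of the 44 genes were called lower, among them all 12 subunit genes of photosystem I. The count over all 26649 genes was 7160 in that setting.

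**Figure D3:**
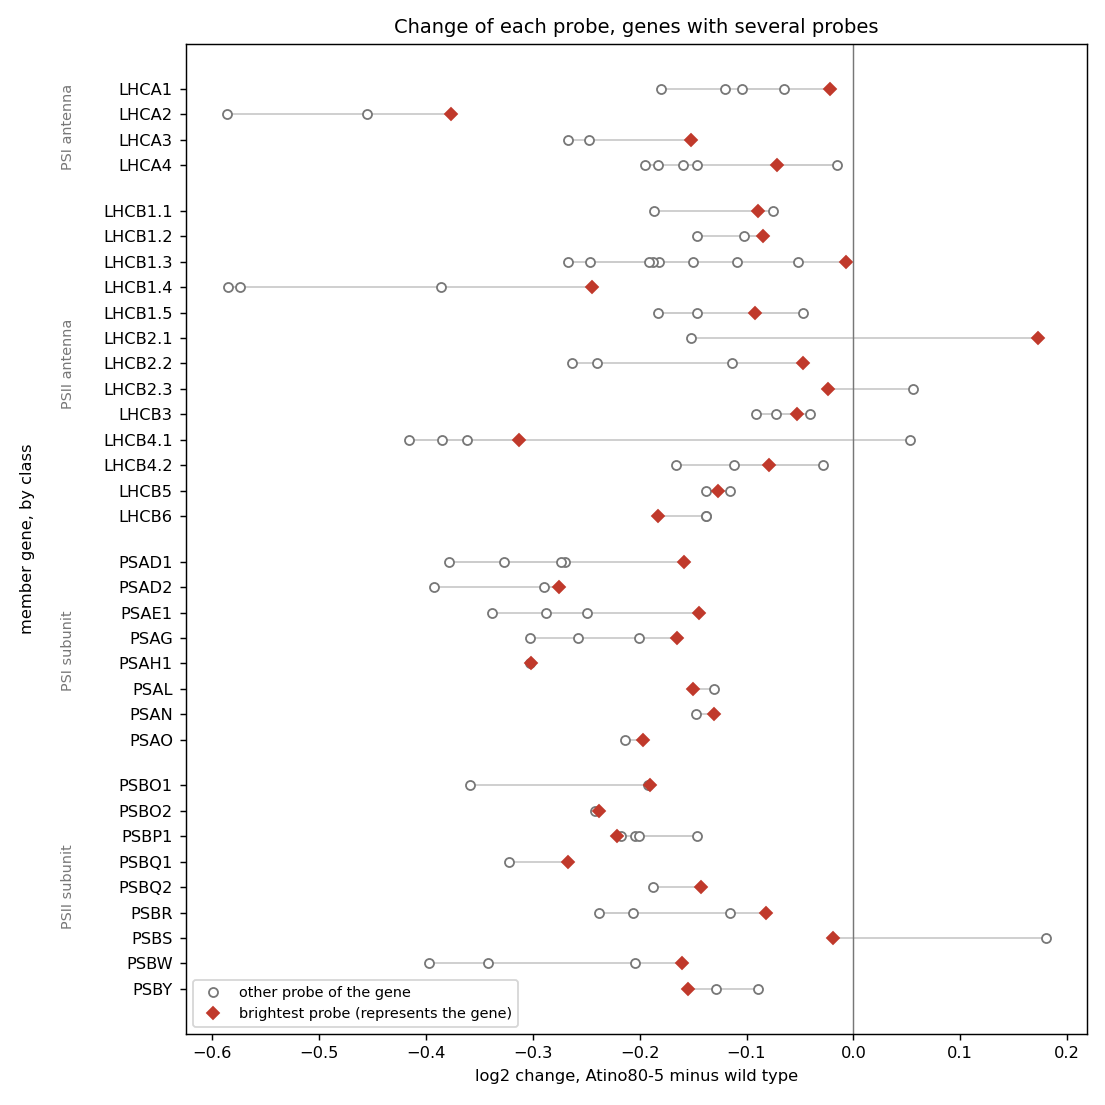
Log2 change of Atino80-5 minus wild type for each probe of the genes that have several, with the brightest probe as a filled diamond and the others as open circles. Most open circles lie to the left of the diamond of their gene, and LHCB2.1, LHCB2.3, LHCB4.1 and PSBS have a probe on each side of 0.

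These transcripts are abundant in green seedlings, and 40 of the 44 genes were so bright on every array that the scanner software took them from its low-gain scan and scaled them up. LHCB4.3 was read that way on 3 arrays, ELIP1 on 2, and ELIP2 and LHCB2.1 on 0. The values of LHCB4.3 and ELIP1 thus mix the 2 scans. Both were brightest on the Atino80-5 arrays, so scan and genotype may coincide in part or in full. The part of this in their rises was not tested. The same holds for the fall of SIG2, a regulator described below. Its probe was read from the low-gain scan on 2 arrays and was brightest in wild type. Of the 2221 genes read from the low-gain scan on all 5 arrays, 36.8% were lower, with a median log2 change of -0.068, so the share of lower calls is also above 26.7% among all bright genes. Some dimmer probes of the same genes were not read that way. Without the ELIP genes, 21 probes of the set were read from the high-gain scan on all arrays, and 10 of them were called lower. Their median log2 change was -0.19, beside -0.17 over the 103 probes read from the low-gain scan.

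The number of genes that passed the threshold differed with the way arrays were scaled to each other. Under the 75th percentile scaling used above, 4 of the 44 genes were higher and 20 lower. With the median in place of the 75th percentile the count was 4 higher and 29 lower, with a median log2 change of -0.20. With quantile normalization it was 5 higher and 8 lower with a median of -0.046, and the authors' deposited values gave 5 higher and 7 lower with a median of -0.041. Higher calls made up 16.7% of all calls in the set under the 75th percentile, 12.1% under the median, 38.5% with quantile normalization and 41.7% in the authors' value table. Over all genes that share was 53.3%, 42.8%, 50.7% and 50.8%. Quantile normalization left 29 of the 44 genes below 0. Of the 20 genes called lower it kept 8, namely LHCA2, LHCB1.4, PSAD2, PSAE2, PSAF, PSAH1, PSAK and PSBO2, and none of the other 12 turned sign. Calls were made under every one of the 18 alternatives for 8 genes: LHCA2, PSAD2, PSAE2, PSAF and PSAH1 were lower, and ELIP1, ELIP2 and LHCB4.3 higher.

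**Figure D4:**
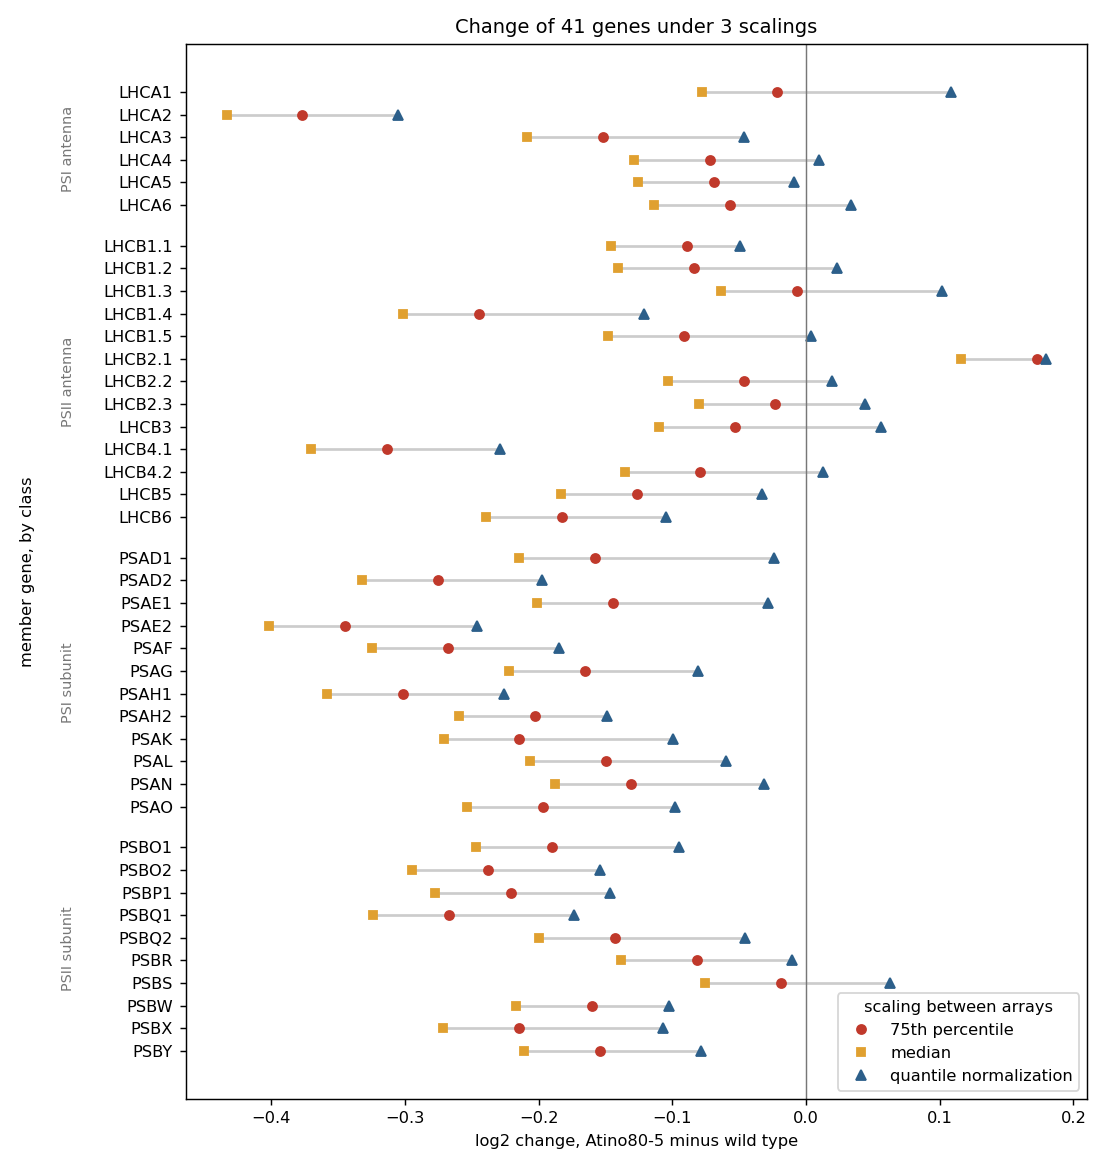
Log2 change of Atino80-5 minus wild type for 41 genes (all but ELIP1, ELIP2 and LHCB4.3) with arrays scaled by their 75th percentile, by their median, or quantile normalized. Quantile normalization moves the genes to the right, so that several antenna genes cross 0 and LHCA1 reaches 0.11, while all 12 subunit genes of photosystem I stay below 0.

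Other genes of the light reactions were also measured. Of 18 genes for electron carriers, ATP synthase and auxiliary photosystem proteins, 9 were lower, 0 higher and 9 not called, beside 26.7% lower over all genes, with a median log2 change of -0.17 that was -0.090 with quantile normalization. PPL2, for a PsbP-like protein with the reference symbol PnsL1, had a log2 change of -0.41 and was called lower. PSBTN, for a small photosystem II subunit, had a change of -0.34. PSB27, for an assembly factor of photosystem II, had a change of -0.30, and both were called lower. Of 12 genes for photosystem assembly and antenna targeting, 4 were lower, 0 higher and 8 not called, a share of 33.3% lower, with a median of -0.065. LTD, whose protein carries antenna proteins from the import machinery to the signal recognition particle of the chloroplast, fell by 0.94 ± 0.073. CPSRP43 and CPSRP54, the genes for that particle's proteins, fell by 0.20 and 0.18. Of 6 antenna-like relatives, 2 were lower, 1 higher and 3 not called, a share of 33.3% lower, with a median of -0.071 that turned to 0.0011 with quantile normalization. OHP, for a one-helix protein, fell by 0.29, and LIL3.1, of chlorophyll synthesis, by 0.17. SEP2, a stress-enhanced protein gene of the same family as the ELIP genes, rose by 0.24. Of 21 carbon fixation genes, 7 were lower, 1 higher and 13 not called, again 33.3% lower beside 26.7% of all genes, with a median of -0.13. CP12-2, for a small regulator of the Calvin cycle, fell by 0.27, HCEF1, for its fructose bisphosphatase, by 0.17, and the phosphoglycerate kinase gene AT1G56190 rose by 0.15.

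Regulators of photosynthesis genes changed in both directions. Of 16, 9 were higher, 4 lower and 3 not called, or 56.2% higher and 25.0% lower, beside 30.5% and 26.7% of all genes, with a median log2 change of 0.12 that stayed above 0 under every setting tried, from 0.062 to 0.16. The morning clock genes LHY and CCA1, of which CCA1 is known to bind an antenna gene promoter, rose by 1.17 ± 0.043 and 0.61 ± 0.027. GLK2, an activator of antenna genes and chlorophyll synthesis, rose by 0.45 ± 0.024, and its relative GLK1, chosen after its value was seen, by 0.58 ± 0.040. SIG2, for a sigma factor of chloroplast transcription, fell by 0.97 ± 0.045. Root markers included PLT2, which rose by 1.09, the root hair expansin gene EXPA18, which rose by 1.25, and WOX5, of the root stem cell niche, with a log2 change of -1.499, called lower. Of 9 leaf and stomatal development genes, 3 were higher, 3 lower and 3 not called, with a median of 0.089. The share was 33.3% in each direction, near the 30.5% higher and 26.7% lower of all genes. YAB5, of leaf polarity, rose by 0.84, the stomatal regulator FAMA fell by 0.28 and AS2, of leaf patterning, fell by 0.68. The summed scaled signal of the 9 genes was 11.4, 11.8 and 11.8 in Atino80-5, and 10.2 and 10.1 in wild type. YAB5 gave processed signals of 15064, 16181 and 17014 in Atino80-5, the highest of the 9 there, and 8661 and 8731 in wild type. The sum weights such bright genes, so it does not stand for all 9.

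**Figure D5:**
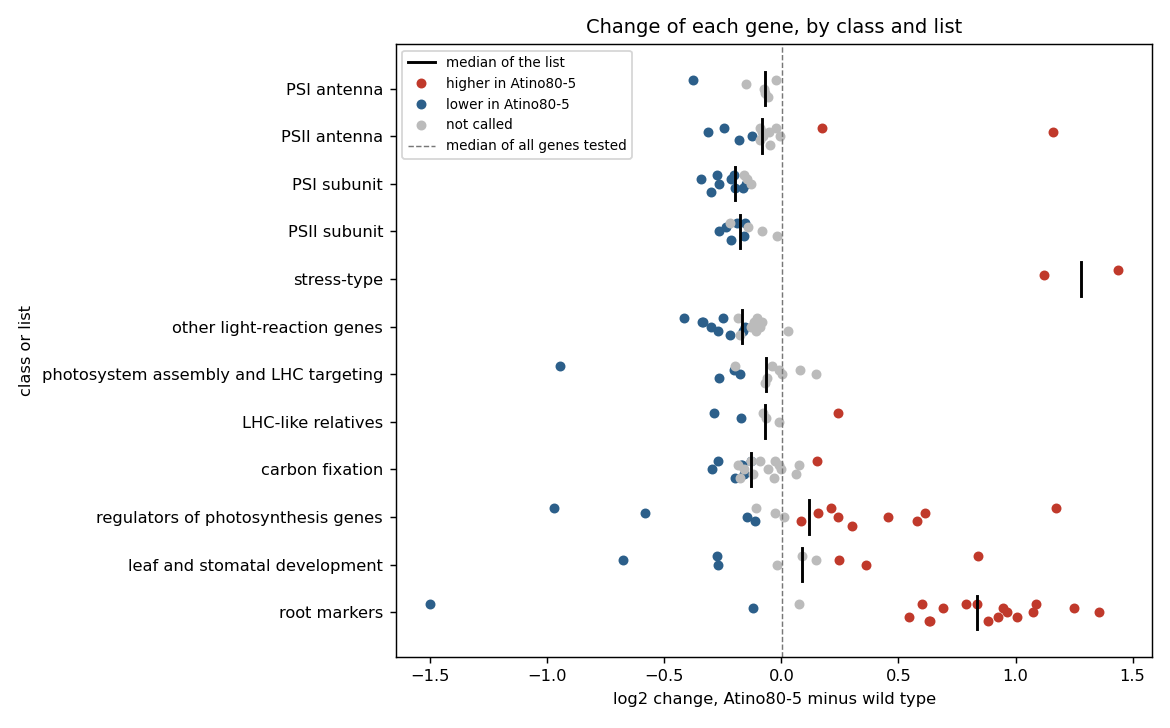
Log2 change of Atino80-5 minus wild type for each gene of the 5 classes described here and of 7 further lists, coloured by call, with a black bar at the median of each list and a dashed line at the median of all genes tested. The subunit classes and the other light-reaction genes centre between -0.20 and -0.17, the antenna classes between -0.082 and -0.070 (0.016 and 0.00046 with quantile normalization), the ELIP genes at 1.28 and the root markers at 0.84.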

How the data were processed

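RNA of 12-day-old whole seedlings was hybridised to 1-colour Agilent arrays, 3 of Atino80-5 and 2 of wild type, grouped and numbered by their titles. The deposited scanner files hold a background-subtracted, spatially detrended signal intensity per spot, per the file headers, which name Agilent Feature Extraction 10.7.3.1 with protocol GE1_107_Sep09, while the submitters' processing notes name version 9.1. No scaling between arrays is recorded there. The authors' deposited value table holds log2 values that correlated with the scanner log2 signal of their array at 0.9994 or more. Its columns share a 75th percentile of 12.15 and have medians of 9.6216, 9.6213 and 9.6213 for Atino80-5 and 9.6208 and 9.6213 for wild type. It was read as quantile normalized and not centred per gene, with no direction of its own, and served as an alternative.

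The 1417 control spots and 7 to 14 outlier spots per array were left out, and 0 spots were saturated. Of 43603 probes, 34285 matched 1 locus through the RefSeq accessions of assembly TAIR10.1, used for names and neighbouring genes only. The log2 processed signal was scaled by subtracting each array's 75th percentile. Probes flagged as well above background on 2 or more of the 5 arrays were kept, and the brightest kept probe stood for its gene, which gave 26649 genes. The genotypes were compared with lmFit and eBayes of limma 3.58.1, run in R 4.3.3, with Benjamini-Hochberg adjustment over all genes and a threshold of 0.05, after a test on simulated data. Errors of changes are moderated standard errors (SE), with 3 residual degrees of freedom and 4.55 with the prior. Probes were fitted the same way, over 35190 probes. The number of arrays limits the precision.

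The 44 genes and the gene lists were chosen with earlier results of these data known. All 44 genes could be named, and of each further list the 3 genes with the smallest p (4 for the regulators), with GLK1 and PLT1 named besides, after their values were seen. Of the 101 names in the lists, 95 match those of the reference. The settings varied were the background correction (normexp, offset 50, on median signals, since the files hold no mean signals), the scaling (quantile, median), the filter (none, or all 5 arrays), the probe of a gene (mean of its probes), the variance model (eBayes with a trend and robust), weights per array, the slide (blocked, or slide 1 alone), a replicate-number block, the source of values (the authors' table), the fold (2-fold minimum) and the arrays (each left out in turn). The dimmest probe of each gene was added after the data were seen. Whether replicate numbers pair arrays was checked by the correlation of their deviations from the genotype means, which was 0.038 and 0.0051 for the 2 shared numbers, so they were not taken as pairs. Promoter sequences were not analysed here.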

Additional observations from a re-analysis of the deposited data

How the results depend on the processing

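The counts over all genes stayed within 1.5 times of 8128 higher and 7118 lower under every alternative but the 2-fold minimum, which left 1215 higher and 701 lower. Of the 44 genes, 20 were lower under the settings of the report. The count was 8 with quantile normalization, 7 in the authors' value table, 13 with no filter on dim probes, 12 with the slide as a block and 12 within slide 1 (the same arrays as without Atino80-5 array 3), 0 with a 2-fold minimum, and 9 to 17 when 1 array was left out. The cause of the shifts with the scaling and the filter was not tested, while the slide settings and the omissions use fewer arrays to compare the genotypes. The count higher lay between 3 and 5. With the replicate number as a block, 7 of the 44 genes were lower and 3 higher, and over all genes 6275 were higher and 4929 lower; the arrays share only a number. The median log2 change of the photosystem I antenna turned to 0.00046 with quantile normalization and 0.0026 in the authors' table, that of the photosystem II antenna to 0.016 and 0.014, and that of the antenna-like relatives to 0.0011 and 0.00076. LHCA1 turned to 0.11 in both (0.109 and 0.112). With the dimmest probe of each gene LHCB2.1 turned to -0.15, LHCB4.1 to 0.053, PSBS to 0.18 and AT1G56190 to -0.097. Of 792 values of the 44 genes under alternatives, 111 lost the call and 45 gained one, not counting 5 that were labelled as reversed in direction. Of the 792 values 40 changed sign, in 13 genes and mostly without a call. Quantile normalization and the authors' table turned 11 each. Where 1 wild type array was left out, the other was assumed to vary like the Atino80-5 arrays. The smallest fall called among the 44 genes was that of LHCB5, 8.39% below wild type, and all 44 were well above background.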
